A study of Homo sapiens with 24 samples.

Results

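Transcripts of 9 genes of the MHC class I antigen presentation pathway were followed in HSJD-DIPG-007, a patient-derived diffuse midline glioma cell line grown as spheroids and labelled as carrying H3F3A K27M, ACVR1 R206H and PIK3CA MIS. The genes were HLA-B, HLA-C, HLA-E, HLA-F, B2M, TAP1, TAP2, TAPBP and NLRC5, chosen by symbol, and each mapped to 1 of the 58676 gene identifiers in the deposited count table. The 24 libraries came from cells given LLY-283, an inhibitor of the arginine methyltransferase PRMT5, at its GI(40) dose, or from cells given vehicle, and every library of both arms carried the same 3 alterations. RNA was taken from each arm on day 0 and day 5 in 3 repeats, on day 7 in 2 repeats, and on days 1, 2, 3 and 10 from 1 library each. The study describes the repeats as technical and all came from 1 cell line, so the p-values below measure the spread between these libraries and not the spread between tumours or independent cultures. The labels call the treatment a single dose, while the methods describe a second dose with fresh medium after 5 days, so the libraries of days 7 and 10 may differ from the earlier ones in this respect.

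MHC class I molecules display peptides from inside the cell to CD8+ T cells and natural killer cells. A heavy chain (HLA-B and HLA-C of the classical genes, HLA-E and HLA-F of the non-classical ones) pairs with the light chain B2M in the endoplasmic reticulum, where the TAP1 and TAP2 transporter brings in peptides and tapasin, the product of TAPBP, holds the heavy chain beside it until a peptide is bound. NLRC5 is the transactivator of class I genes, and interferon signalling through STAT and IRF factors raises transcription of much of the pathway. Loss of class I display is a known route by which tumours escape T cells.

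Library totals ran from 13835205 to 23190369 counts, and the levels below are counts per 1000000 counts of the library (CPM) after TMM scaling over the 24 libraries. Within the arms of days 0 and 5, repeats differed by 1.65 to 3.79 chi-square units per degree of freedom over genes, so no pair agreed within counting noise. The repeats of day 7 differed by 11.2 in vehicle and 13.4 with LLY-283. LLY-283 repeat 2 differed from vehicle repeat 1 of that day by only 2.93, so the labels of these libraries are in doubt. Vehicle repeat 2 differed from the other libraries of day 7 by 10.6 to 12, and which library is mislabelled, if any, was not tested. The labels were used as given, and day 7 is shown for each repeat and the time course with and without repeat 2. Vehicle day 5 repeat 3 held 60.4 CPM of FN1 and 53.8 CPM of COL1A1, and LLY-283 day 2 and vehicle day 7 repeat 1 held 26.0 and 30.0 CPM of FN1, while the other libraries held 0.758 to 8.19 CPM of FN1, and these are genes of fibroblasts and matrix. The immune cell markers summed to 0.186 to 1.47 CPM in every library with 2 to 6 of 8 at 0, and the glioma markers summed to 4205 to 4983 CPM, although SOX10, a marker of the oligodendrocyte lineage, was at 0 to 0.603 CPM. In bulk RNA, fewer cells of a type and less RNA per cell cannot be told apart.

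Of the 9 genes, 7 lie in the MHC region of chromosome 6, and B2M on chromosome 15 and NLRC5 on chromosome 16 lie outside it (GRCh38). HLA-F spans 29722775 to 29738528 and HLA-E spans 30489509 to 30494194, both on the plus strand. HLA-C at 31268749 to 31272130 and HLA-B at 31353872 to 31367067 lie on the minus strand. So do TAP2 at 32821833 to 32838739, TAP1 at 32845209 to 32853816 and, further along, TAPBP at 33299694 to 33314284. B2M lies at 44711358 to 44718851 and NLRC5 at 56989485 to 57083531, on the plus strand. The annotated exons of TAP2 share 11 exon overlaps with a longer same-strand gene model, ENSG00000250264, which held 0 to 118 counts a library. HLA-B shares 9 exon overlaps with a transcribed pseudogene on the same strand, DHFRP2. HLA-F overlaps HLA-F-AS1 and TAP1 overlaps PSMB8-AS1 on the other strand. The library kit marks strand, but the sources used here do not say whether the counting used it, so their reads may be mixed. Of the 31-base words in its transcripts, HLA-B shared 48.9% with transcripts of other genes, TAPBP 28.5% and HLA-F 25.6%. TAP2 shared 19.4%, TAP1 17.4%, HLA-C 16.8%, HLA-E 12.4%, B2M 0.589% and NLRC5 0.334%. The shares with others of the 9 genes were smaller, at 12.1% for HLA-C, 6.07% for HLA-B and 1.62% for HLA-F. The counts of HLA-B, TAPBP and HLA-F are thus less certain than the count of B2M, mostly through genes outside the 9. For HLA-C most of the shared words lay within the 9. How such sharing bears on the ratio and the correlation of HLA-B and HLA-C below was not tested.

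RefSeq (GRCh38.p14) gave a promoter for 7 of the 9 genes, HLA-E and NLRC5 being the exceptions. Those of HLA-B, B2M, TAP1 and TAP2 are shown because the first 3 were higher with LLY-283 at day 5 and the last was lower. Each runs 5′ to 3′ over the 250 bases before the start site. Capitals mark every match, on either strand, to any of 5 motifs. These were the interferon-stimulated response element (GAAA and GAAA with 2 bases between), the kappa B letters (GGG and TTCCC with 2 bases between), the gamma-activated letters (TTC and GAA with 3 bases between), CCAAT, and the cyclic AMP response letters (TGACG). HLA-B is at chr6:31357180-31357429 (minus strand), B2M at chr15:44711267-44711516 (plus), TAP1 at chr6:32853705-32853954 (minus) and TAP2 at chr6:32838740-32838989 (minus).
HLA-B: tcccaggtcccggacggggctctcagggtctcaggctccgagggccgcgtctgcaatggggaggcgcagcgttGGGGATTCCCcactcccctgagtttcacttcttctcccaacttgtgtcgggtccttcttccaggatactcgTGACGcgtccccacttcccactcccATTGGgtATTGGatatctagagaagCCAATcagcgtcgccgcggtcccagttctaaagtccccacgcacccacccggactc
B2M: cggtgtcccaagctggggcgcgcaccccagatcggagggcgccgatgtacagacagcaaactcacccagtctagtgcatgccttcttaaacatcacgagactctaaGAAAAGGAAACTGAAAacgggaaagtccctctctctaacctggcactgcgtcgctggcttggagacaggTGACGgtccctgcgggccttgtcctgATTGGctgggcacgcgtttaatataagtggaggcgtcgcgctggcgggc
TAP1: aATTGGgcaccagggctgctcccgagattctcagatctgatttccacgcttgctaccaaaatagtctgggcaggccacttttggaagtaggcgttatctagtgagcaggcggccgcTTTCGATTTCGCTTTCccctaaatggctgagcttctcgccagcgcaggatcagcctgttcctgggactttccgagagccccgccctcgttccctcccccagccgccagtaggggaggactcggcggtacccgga
TAP2: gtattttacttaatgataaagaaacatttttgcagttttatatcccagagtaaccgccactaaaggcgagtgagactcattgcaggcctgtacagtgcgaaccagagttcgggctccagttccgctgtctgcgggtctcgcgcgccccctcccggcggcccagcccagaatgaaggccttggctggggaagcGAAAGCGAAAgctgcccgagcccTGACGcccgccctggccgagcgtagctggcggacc
The response element letters occurred in 3.02% of 35116 promoters and in 5 of these 7, those of HLA-F, B2M, TAP1, TAP2 and TAPBP. B2M, TAP1 and TAPBP each held a pair of overlapping matches. TAP2 held a single match, 58 to 49 bases before its start. These letters were thus present before TAP2, which was lower with LLY-283, and before genes that were higher. Whether they bear on the direction of a difference was not tested. HLA-B and HLA-C held no exact match to these letters in this window, and looser forms of the element were not searched for. HLA-B held the kappa B letters, GGGGATTCCC, 177 to 168 bases before its start, a match found in 1.97% of promoters. The CCAAT letters, found in 32.0% of promoters, were present for HLA-B, HLA-C, HLA-F, B2M and TAP1, and TGACG, found in 21.2%, for HLA-B, HLA-C, B2M and TAP2. RefSeq gave TAP1 a second start site, whose promoter is not shown. It held the only match to the gamma-activated letters, TTCTGGGAA, 189 to 181 bases before that start. Those letters were found in 6.57% of promoters. These are matches of letters and not sites shown to be bound.

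On a scale of CPM per kilobase of the longest annotated transcript, the light chain led the pathway. In vehicle on day 0 B2M stood at 199 ± 12.1 (SD, n = 3), followed by HLA-C at 63.6 ± 3.26, HLA-B at 41.5 ± 1.30 and TAPBP at 26.6 ± 0.827. TAP1 at 18.8 ± 0.505, TAP2 at 17.9 ± 0.747 and HLA-E at 17.4 ± 1.30 followed, neighbours that did not differ beyond their spread, and HLA-F at 4.75 ± 0.430 and NLRC5 at 4.58 ± 0.176 closed the order, likewise within their spread of each other. The order of the classical heavy chains depended on the transcript chosen, since over the canonical transcripts HLA-B stood at 95.8 ± 3.00 and HLA-C at 77.6 ± 3.98. By day 5 in vehicle HLA-B on the longest-transcript scale had moved to 14.6 ± 0.815, below TAPBP at 30.4 ± 0.994, HLA-C at 26.5 ± 0.899 and, within the spread, HLA-E at 16.2 ± 1.31. Over the canonical transcripts HLA-B stood at 33.6 ± 1.88 then, above HLA-E at 16.2 ± 1.31 and within the spread of HLA-C at 32.3 ± 1.1, so its place in the order depends on the transcript. With LLY-283 on day 5 TAP1, at 12.2 ± 0.917, lay above TAP2, at 8.42 ± 0.407, while in vehicle they stood at 9.48 ± 0.318 and 10.0 ± 0.925.

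**Figure D1:**
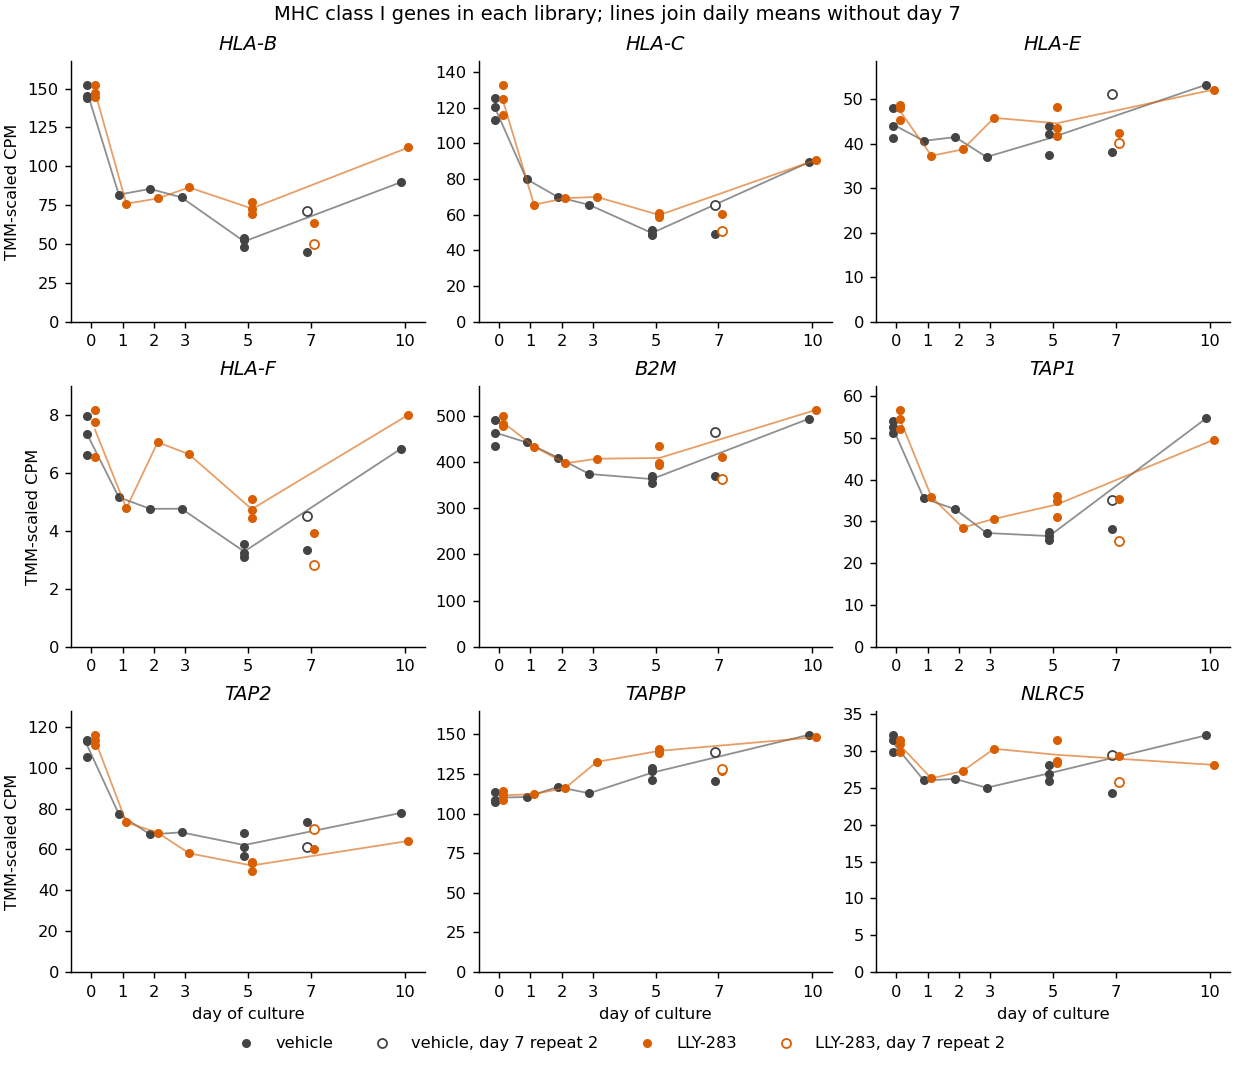
Level of each of the 9 genes (y axis, TMM-scaled CPM) by day (x axis) in vehicle and LLY-283 libraries, 1 point a library, with open circles for repeat 2 of day 7 and lines joining the daily means without day 7. HLA-B, HLA-C, TAP1, TAP2 and HLA-F drop from day 0 to day 5 in both arms, and at day 5 the 3 LLY-283 points of HLA-B (69.5 to 76.9 CPM) lie above the 3 vehicle points (48.4 to 54.0 CPM).

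The first comparison asked which of the 9 genes differed between LLY-283 and vehicle on day 5. HLA-B, HLA-C, HLA-F, B2M, TAP1 and TAPBP were higher with LLY-283 and TAP2 was lower, by the quasi-likelihood test of edgeR, with p-values adjusted by Benjamini-Hochberg over 16491 genes and a threshold of 0.01. These 7 calls of 9 stood against 26.1% of all genes tested, 12% being higher and 14.1% lower. The median log2 difference of the 9 genes was 0.20 and that of all genes tested was 0.02. The differences of the 6 higher genes were small, from 1.13-fold for TAPBP to 1.47-fold for HLA-F. A larger positive difference between the arms than that of HLA-B was found for 8.94% of the genes tested.

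Of the classical heavy chains, HLA-B presents peptides to CD8+ T cells and held 53.97, 48.42 and 52.59 CPM in vehicle repeats 1, 2 and 3 on day 5 and 76.85, 69.48 and 72.33 CPM with LLY-283. Every LLY-283 library lay above every vehicle library, and the log2 difference was 0.52 (SE 0.0502, adjusted p = 4e-09). HLA-C, which also engages inhibitory receptors of natural killer cells, held 51.67, 48.56 and 48.97 CPM in vehicle libraries and 60.82, 59.75 and 58.93 CPM with LLY-283. Its groups did not overlap either, with a log2 difference of 0.29 (SE 0.0482, adjusted p = 2.2e-05). HLA-B thus stood at 1.04 ± 0.039 times the count of HLA-C in vehicle and at 1.22 ± 0.051 times with LLY-283 (n = 3 each), ratios whose libraries did not overlap on day 5 and reached p = 0.1 in a two-sided exact permutation test, the smallest that 3 against 3 allows. On day 0 the same ratio was 1.23 ± 0.044 and 1.19 ± 0.068, with overlapping libraries (two-sided exact permutation p = 0.5).

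The non-classical heavy chains were read at lower depth. HLA-F, whose product can reach the cell surface without a bound peptide, held only 42 to 175 counts in any library. On day 5 it held 3.229, 3.548 and 3.102 CPM in vehicle libraries and 4.723, 5.102 and 4.449 CPM with LLY-283, groups that did not overlap. Its log2 difference of 0.55 (SE 0.165) had an adjusted p of 0.0091, close to the threshold, and the call was lost when any 1 of the 6 libraries was left out, with adjusted p-values of 0.016 to 0.054. HLA-E, the ligand of the NKG2A receptor of natural killer cells, held 43.91, 37.45 and 42.25 CPM in vehicle libraries and 48.34, 41.81 and 43.64 CPM with LLY-283. The groups of HLA-E overlapped and its log2 difference of 0.14 (SE 0.0614) was not called (adjusted p = 0.085), and it was 0.06 without vehicle repeat 2 and 0.07 without LLY-283 repeat 1.

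B2M, the light chain that every class I heavy chain needs, held 365.2, 353.5 and 369.7 CPM in vehicle on day 5 and 433.6, 394.0 and 397.9 CPM with LLY-283. All 3 LLY-283 libraries lay above the 3 of vehicle, by 0.20 on the log2 scale (SE 0.0363, adjusted p = 9.2e-05). Of the heavy chains, HLA-F (0.55), HLA-B (0.52) and HLA-C (0.29) had larger log2 differences than B2M, and HLA-E (0.14) a smaller one. HLA-B stood at 0.142 ± 0.0054 of the B2M count in vehicle and at 0.178 ± 0.0029 with LLY-283 (two-sided exact permutation p = 0.1, the smallest possible). On day 0 the same ratio was 0.318 ± 0.013 and 0.304 ± 0.0018, again without overlap but in the other direction.

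The peptide transporter is a dimer of TAP1 and TAP2, and its subunits moved in opposite directions. TAP1 held 26.46, 25.62 and 27.40 CPM in vehicle on day 5 and 34.93, 36.03 and 31.14 CPM with LLY-283, higher in every library and by 0.39 on the log2 scale (SE 0.0646, adjusted p = 2.5e-05). TAP2 held 68.25, 61.37 and 56.87 CPM in vehicle libraries and 53.18, 49.28 and 53.99 CPM with LLY-283, lower in every library with a log2 difference of -0.23 (SE 0.0583, adjusted p = 0.0032). Groups not overlapping in that direction were found for 25.5% of all genes tested, and for 20.7% in the higher direction. The TAP2 call depended on single libraries, since its log2 difference was -0.17 without vehicle repeat 1 (adjusted p = 0.03), -0.25 without LLY-283 repeat 1 (0.01) and -0.20 without LLY-283 repeat 2 (0.025), none of which passed. Summing TAP2 with the longer gene model that shares its exons left the log2 difference at -0.23.

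Of the 5 ratios computed, that of the TAP subunits had the largest log2 difference between the arms on day 5. TAP1 stood at 0.388, 0.418 and 0.482 times the TAP2 count in the 3 vehicle libraries of day 5, and at 0.657, 0.731 and 0.577 times with LLY-283. The arms did not overlap and their means, 0.429 ± 0.048 and 0.655 ± 0.077, differed by 0.61 on the log2 scale (two-sided exact permutation p = 0.1, the smallest possible). On day 0 the ratio was 0.474 ± 0.011 in vehicle and 0.478 ± 0.030 with LLY-283, with overlapping libraries (two-sided exact permutation p = 0.9). In repeats 1 and 2 of day 7 it was 0.383 and 0.577 in vehicle, and 0.587 and 0.361 with LLY-283. The single libraries of day 10 held 0.701 in vehicle and 0.771 with LLY-283. Vehicle on day 10 thus lay within the range of the LLY-283 libraries of day 5. TAPBP over TAP2 was 2.04 ± 0.24 and 2.68 ± 0.15 on day 5, and HLA-B over HLA-E was 1.26 ± 0.033 and 1.64 ± 0.040, each again without overlap. Across 5 ratios on 2 days no p could fall below 0.1, so none passes a threshold of 0.05 and the values are descriptive.

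**Figure D2:**
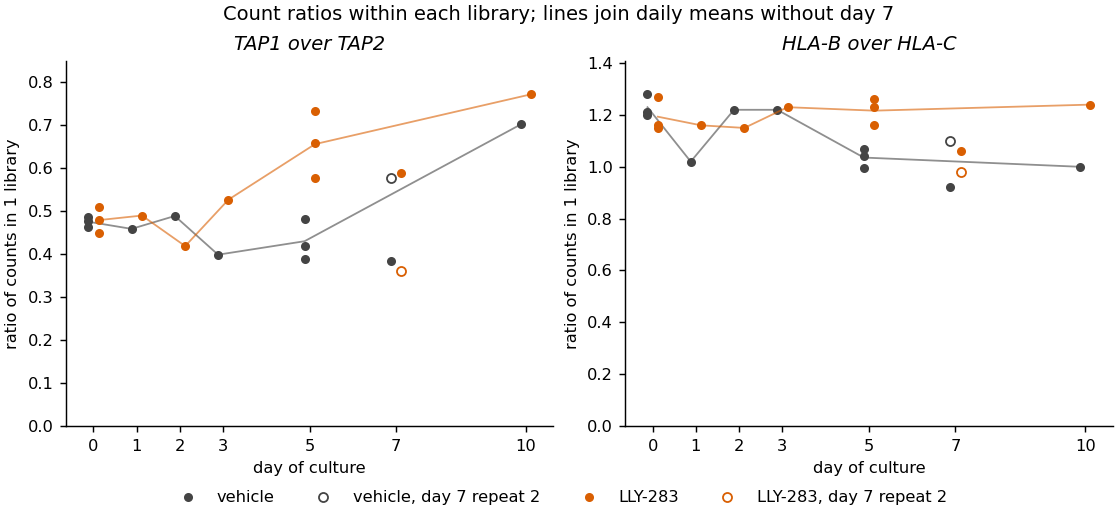
Ratio of counts (y axis) of TAP1 to TAP2 and of HLA-B to HLA-C in every library by day (x axis), 1 point a library, vehicle and LLY-283 in separate colours. At day 5 the LLY-283 libraries lie at 0.577 to 0.731 for TAP1 over TAP2 and the vehicle libraries at 0.388 to 0.482.

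TAPBP encodes tapasin, the chaperone that edits the peptides heavy chains receive. It held 121.2, 129.0 and 127.1 CPM in vehicle on day 5 and 139.8, 140.5 and 138.5 CPM with LLY-283, without overlap. The log2 difference of 0.18 (SE 0.0381, adjusted p = 0.00053) fell to 0.135 and an adjusted p of 0.021 without vehicle repeat 1, the library whose omission ended the call. NLRC5, the transactivator, held 26.89, 28.19 and 25.92 CPM in vehicle libraries and 28.63, 31.56 and 28.34 CPM with LLY-283. Although the groups of NLRC5 did not overlap, its log2 difference of 0.15 (SE 0.0653) was not called (adjusted p = 0.069), and it was 0.10 without LLY-283 repeat 2.

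The calls for HLA-B, HLA-C, B2M and TAP1 held when any 1 of the 6 libraries was left out, with log2 differences of 0.47 to 0.55, 0.26 to 0.31, 0.15 to 0.22 and 0.34 to 0.44. The HLA-B call also held when its counts were summed with those of DHFRP2, the same-strand pseudogene. Without vehicle repeat 3, the library with high FN1 and COL1A1, 5 genes were higher and TAP2 was lower, with a log2 difference of -0.29, and only HLA-F lost its call. When the libraries of all days but day 10 shared 1 fit, none of the 7 calls passed, the adjusted p-values being 0.017 for TAP1, 0.022 for HLA-B, 0.023 for TAP2, 0.028 for HLA-F, 0.038 for TAPBP, 0.041 for HLA-C and 0.091 for B2M. A fit of days 0 to 5, added after seeing the data, gave the same 6 higher and 1 lower.

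**Figure D3:**
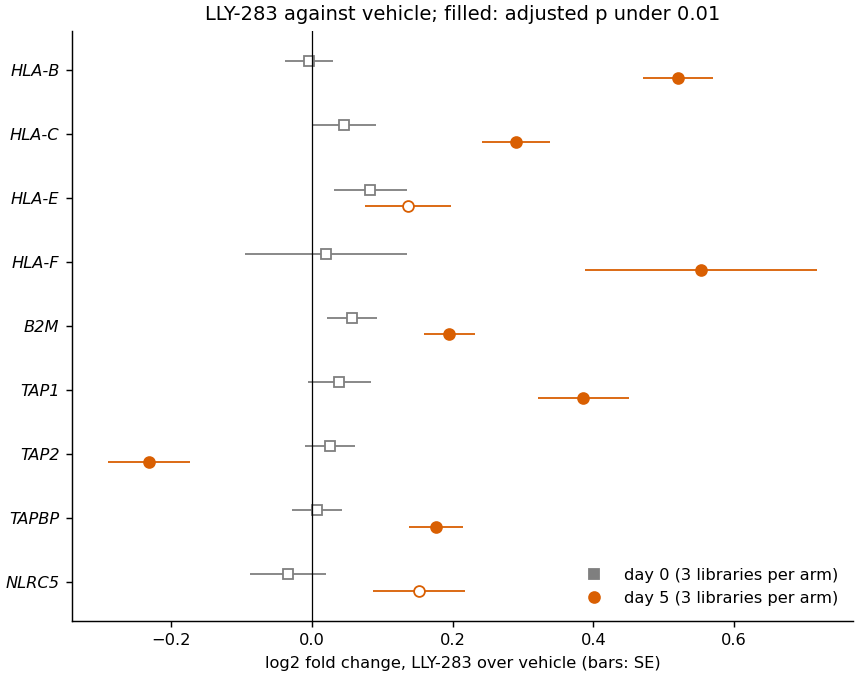
Log2 fold change of LLY-283 over vehicle (x axis) for the 9 genes with its standard error as bars, day 0 as squares and day 5 as circles, filled where the adjusted p was under 0.01. All day 0 values lie between -0.03 and 0.08, and on day 5 HLA-B lies at 0.52 and TAP2 at -0.23.

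The second comparison served as the control for the first, since on day 0 the arms had not yet been treated for any time. None of the 9 genes was called on day 0 by edgeR, and 0.0169% of 17780 genes were (3 genes, with 5.69% at an unadjusted p under 0.05). HLA-B held 145.1, 143.9 and 152.4 CPM in vehicle and 152.4, 147.2 and 144.3 CPM in the LLY-283 arm, and TAP2 held 105.4, 113.6 and 113.2 CPM against 113.7, 116.2 and 111.4 CPM. The groups of all 9 genes overlapped, while those of 11.9% of all genes did not, and their log2 differences ran from -0.03 for NLRC5 to 0.08 for HLA-E.

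The third comparison followed each arm from day 0 to day 5, and it held the largest changes of the pathway. In vehicle HLA-B, HLA-C, HLA-F, TAP1, TAP2, B2M and NLRC5 fell and TAPBP rose, 8 calls of 9 against 38.9% of 17106 genes, with 16.7% of genes lower and 22.2% higher. With LLY-283 the first 6 fell and TAPBP rose, 7 calls of 9 against 42.4% of 17341 genes, with 19.5% lower and 22.9% higher. The median log2 change of the 9 genes was -0.84 in vehicle and -0.64 with LLY-283, beside -0.02 and 0.01 for all genes tested. Days in culture, cell density and use of the medium rise together over these days and cannot be told apart. The libraries of day 0 and day 5 also carry separate ranges of sample numbers. Whether they were prepared or sequenced apart is not stated in the sources used here. Any difference in handling between them could not be told apart from time either.

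HLA-B changed most in vehicle. Its mean went from 147.1 ± 4.61 to 51.66 ± 2.89 CPM in vehicle, 35.1% of its day 0 level, and from 147.9 ± 4.10 to 72.89 ± 3.72 CPM with LLY-283, 49.3% of its day 0 level (SD, n = 3). The log2 changes were -1.52 (SE 0.0445, adjusted p = 1.2e-20) and -1.004 (SE 0.0385, adjusted p = 1.4e-16), and 1.29% and 2.63% of genes fell further. HLA-C fell beside it, from 119.6 ± 6.13 to 49.73 ± 1.69 CPM in vehicle and from 124.5 ± 8.45 to 59.83 ± 0.945 CPM with LLY-283, log2 changes of -1.28 and -1.04 (adjusted p = 9.3e-19 and 5.8e-15). The day 1 libraries already held 81.78 and 75.92 CPM of HLA-B in vehicle and LLY-283, below every library of day 0, with 1 library each and no test.

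TAP1 fell by 1.003 on the log2 scale in vehicle, from 52.52 ± 1.41 to 26.49 ± 0.889 CPM, and by 0.66 with LLY-283, from 54.38 ± 2.30 to 34.03 ± 2.56 CPM (adjusted p = 9.2e-15 and 2e-10). TAP2 fell less in vehicle than with LLY-283, in contrast to TAP1, since it fell by 0.84 in vehicle, from 110.7 ± 4.63 to 62.16 ± 5.73 CPM, and by 1.11 with LLY-283, from 113.8 ± 2.38 to 52.15 ± 2.52 CPM (adjusted p = 4.3e-12 and 8.6e-17). TAP2 was the gene of the 9 that retained the smallest share of its day 0 level with LLY-283, 45.8%, while HLA-B, at 35.1%, retained the smallest share in vehicle. HLA-F retained 45% in vehicle and 63.4% with LLY-283, with log2 changes of -1.16 and -0.64 (adjusted p = 1.6e-07 and 0.00018).

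B2M, the most abundant of the 9, moved little, from 463.4 ± 28.1 to 362.8 ± 8.35 CPM in vehicle and from 486.1 ± 11.6 to 408.5 ± 21.8 CPM with LLY-283. Its log2 changes of -0.37 and -0.23 were called in both arms (adjusted p = 8e-09 and 2.1e-06). TAPBP rose by 0.18 in vehicle and by 0.34 with LLY-283 (adjusted p = 0.00045 and 7.5e-09), in the opposite direction to HLA-B, HLA-C and HLA-F. HLA-E held 92.8% and 94.2% of its day 0 level, with log2 changes of -0.12 and -0.07 that were not called (adjusted p = 0.11 and 0.26).

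NLRC5 stood at 31.23 ± 1.2 CPM in vehicle on day 0 and at 27.00 ± 1.14 CPM on day 5, with a log2 change of -0.22 (adjusted p = 0.0034). That call was lost when repeat 2 or 3 of day 0, or repeat 1 or 3 of day 5, was left out, the log2 change over the 6 omissions running from -0.25 to -0.19. It was lost under DESeq2 too (-0.23, adjusted p = 0.028) and in the fit of 22 libraries (-0.21, 0.036). With LLY-283 the log2 change of NLRC5 was -0.04 (adjusted p = 0.58). NLRC5 is a transactivator of the heavy chains, B2M and TAP1. Its own transcript moved by far less than that of HLA-B in either arm, and its part in the changes of the other genes was not tested. The TAPBP call in vehicle was lost with scaling by library size alone (log2 change 0.12, adjusted p = 0.011), and its direction did not change.

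**Figure D4:**
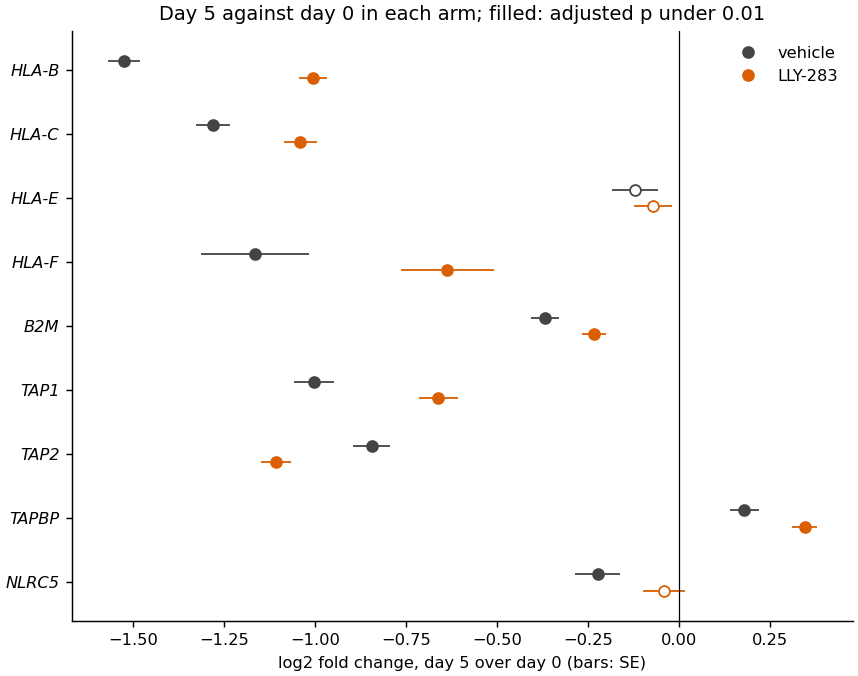
Log2 fold change of day 5 over day 0 (x axis) for the 9 genes in vehicle and in LLY-283 libraries, with standard errors as bars and filled symbols where the adjusted p was under 0.01. HLA-B lies at -1.52 in vehicle and -1.004 with LLY-283, TAP2 at -0.84 and -1.11, and TAPBP is the only one of the 9 above 0 in both arms.

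Whether the difference between the arms changed from day 0, before treatment, to day 5 was tested as an interaction over 18369 genes. The difference of LLY-283 from vehicle was larger at day 5 for HLA-B by 0.53 (SE 0.0617, adjusted p = 3.9e-07), for TAP1 by 0.35 (SE 0.0782, adjusted p = 0.0014) and for HLA-C by 0.25 (SE 0.0672, adjusted p = 0.0072) on the log2 scale, and lower for TAP2, at -0.25 (SE 0.0697, adjusted p = 0.0079). These 4 calls of 9 compare with 14.9% of all genes, 6.78% higher and 8.15% lower. HLA-F at 0.53 (adjusted p = 0.039), TAPBP at 0.17 (0.016), B2M at 0.14 (0.061), NLRC5 at 0.19 (0.097) and HLA-E at 0.06 (0.7) were not called. At a threshold of 0.05 HLA-F and TAPBP would pass as well, beside 24.2% of all genes.

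HLA-B and TAP1 kept this call when any 1 of the 12 libraries was left out. HLA-C, with log2 values of 0.18 to 0.295, lost it in 9 of the 12 omissions and kept it only when repeat 1 of either arm on day 0, or of vehicle on day 5, was the one omitted. TAP2, with values of -0.31 to -0.18, lost it in 8 of them and kept it only when repeat 2 or 3 of vehicle on day 0, or repeat 3 of either arm on day 5, was omitted. Without vehicle day 5 repeat 3 the values were 0.24 for HLA-C (adjusted p = 0.024) and -0.31 for TAP2 (0.0015). HLA-C also did not pass under DESeq2 (0.23, adjusted p = 0.028), with the size factors of DESeq2 in edgeR (0.22, 0.015) or in the fit of days 0 to 5 (0.22, 0.028). With the day 7 libraries in the same fit none of the 4 passed.

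Single libraries stood for days 1, 2, 3 and 10. The ratio of LLY-283 to vehicle for HLA-B was 0.928 on day 1 (95% counting interval 0.865 to 0.996), 0.928 on day 2 (0.867 to 0.994), 1.08 on day 3 (1.00 to 1.16) and 1.25 on day 10 (1.17 to 1.34). The ratio for TAP2 was 0.947, 1.01, 0.850 and 0.824 on the same days, the last 2 with intervals of 0.781 to 0.926 and 0.761 to 0.892. HLA-B was thus above vehicle and TAP2 below it on day 10, as on day 5, and neither was so on day 2. Intervals of this kind cover counting error and not the spread between repeats. Over all genes that spread exceeded counting noise on days 0, 5 and 7.

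Most of the other genes lay closer to vehicle than HLA-B on day 10, or below it. HLA-C stood at 1.02 (0.947 to 1.09), TAP1 at 0.906 (0.826 to 0.995), B2M at 1.04 (1.01 to 1.07) and NLRC5 at 0.875 (0.775 to 0.989). On day 3 HLA-E stood at 1.24 (1.11 to 1.38), TAPBP at 1.18 (1.11 to 1.25), NLRC5 at 1.21 (1.06 to 1.38) and HLA-F at 1.39 (1.04 to 1.88). With days 1 to 3 as a blocking term, no gene of the 9 was called, the largest log2 difference being 0.33 for HLA-F (edgeR adjusted p = 0.33). By that test 0% of 17240 genes passed, with 2879 at an unadjusted p under 0.05. Between day 5 and day 10 the levels differed by gene, with HLA-B on day 10 at 89.75 CPM in vehicle libraries and 112.1 CPM with LLY-283, TAP1 at 54.62 and 49.50 CPM, both above day 5, and NLRC5 with LLY-283 at 28.14 CPM beside a day 5 mean of 29.51 CPM. These single libraries carried no test.

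On day 7 the repeats gave opposite directions. In repeat 1 HLA-B held 45.15 CPM in vehicle libraries and 63.60 CPM with LLY-283, and in repeat 2 it held 71.53 and 49.79 CPM. TAP2 held 73.59 and 60.09 CPM in repeat 1 and 60.99 and 70.24 CPM in repeat 2. In repeat 1 the other 8 genes were higher with LLY-283 and TAP2 was lower, the median log2 ratio being 0.23, and in repeat 2 the other 8 were lower and TAP2 was higher, with a median of -0.36. The signs of repeat 1 were those of day 5 for all 9 genes, and those of repeat 2 were the reverse for all 9. The whole libraries showed the closeness given above of LLY-283 repeat 2 to vehicle repeat 1, while vehicle repeat 2 differed from LLY-283 repeat 1 by 10.6 chi-square units per degree of freedom. Over both repeats no gene was called by edgeR, 0% of 16826, with 236 at an unadjusted p under 0.05 and an adjusted p of 1 for all 9 genes.

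The time course from day 0 to day 7 asked whether the arms differed in their course over days. With all 22 libraries none of the 9 genes was called, and 0.0289% of 20756 genes were, with adjusted p-values in edgeR of 0.43 for HLA-B, 0.38 for HLA-C and 0.38 for TAP1. Leaving out repeat 2 of day 7 in both arms, a choice made after seeing the data, gave calls for HLA-B (adjusted p = 5.1e-06), HLA-C (0.0028) and TAP1 (0.0056), beside 9.66% of 20714 genes. Days 0 to 5 alone gave the same 3 genes at 3.7e-06, 0.0023 and 0.0036, beside 9.61% of 20642 genes. Without a filter on low counts and with all 22 libraries, HLA-C (0.0014) and TAP1 (0.0032) also passed, beside 2.81% of 43331 genes, and HLA-B did not.

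Across the 24 libraries HLA-B varied 3.38-fold from lowest to highest, HLA-F 2.88-fold, HLA-C 2.74-fold, TAP2 2.36-fold and TAP1 2.23-fold. B2M at 1.45-fold, HLA-E at 1.44-fold, TAPBP at 1.40-fold and NLRC5 at 1.33-fold varied less. HLA-B and HLA-C followed each other most closely, with a Pearson correlation of 0.979 over the 24 libraries, which share days and arms, so the value is a description. TAP1 and TAP2 were correlated at 0.727 and TAPBP and TAP2 at -0.709. The mean z-score of the 9 genes, to which each gene contributes, was followed most closely by TAP1 (0.958) and B2M (0.936), and least by TAP2 (0.649) and TAPBP (-0.07). Outside the 9 genes, SNHG32 (0.958), ANXA4 (0.941), FMN2 (0.930) and NALF1 (0.927) were among those most like that mean, from 20867 genes of which 0.0527% exceeded 0.9.

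Of 11 genes that make and load peptides 1 was called at day 5, where 26.1% of all genes were. This was CALR, the chaperone calreticulin, which was lower (log2 difference -0.19, adjusted p = 0.00028), and the median was -0.08. The chaperones PDIA3 at -0.11 and CANX at -0.08 were not called (adjusted p = 0.015 and 0.069). PSMB8 and PSMB9, the immunoproteasome subunits encoded beside TAP1, stood at -0.05 and -0.11 and were not called (adjusted p = 0.59 and 0.65), although the start of PSMB9 faces that of TAP1. Over culture they fell with the heavy chains, with log2 changes of -0.95 in vehicle and -1.01 with LLY-283 for PSMB8, and of -1.40 and -1.60 for PSMB9. In vehicle 3 of the 11 rose and 4 fell, beside 22.2% and 16.7% of all genes. With LLY-283 1 rose and 6 fell, beside 22.9% and 19.5%.

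Among 22 regulators of class I transcription 4 were higher and 2 lower at day 5, with a median of -0.01, beside 26.1% of all genes called. STAT2 at 0.51 (adjusted p = 1.8e-07) and IRF9 at 0.59 (0.00088), partners in the interferon-activated complex, were higher, as were STAT3 at 0.17 (0.00058) and RFX5 at 0.32 (3.8e-07). RFX5 and RFXAP are subunits of one complex that binds class I promoters with NLRC5, and RFXAP was lower, at -0.48 (adjusted p = 0.0032). NFYA, a CCAAT-binding subunit, was lower too, at -0.27 (1.1e-05), and IRF1 at 0.15 (0.46) and CIITA at -0.15 (0.62) were not called. In vehicle over culture 8 of the 22 rose and 2 fell, beside 22.2% and 16.7% of all genes, and with LLY-283 10 rose and 3 fell, beside 22.9% and 19.5%.

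Of 32 interferon-stimulated genes 25 were tested at day 5, 4 being higher and 1 lower with a median of 0.10, beside 26.1% of all genes called. IFIT2 at 0.61 (adjusted p = 1e-10), IFIT1 at 0.56 (1.9e-07), IFIT3 at 0.44 (0.0047) and IFI44L at 0.43 (0.0028) were higher, and IFIT5 was lower at -0.16 (0.0043). Over culture 6 of 25 rose and 6 fell in vehicle, where 38.9% of all genes were called. With LLY-283 7 of 26 rose and 7 fell, where 42.4% were called. The median log2 change of the list was -0.34 in vehicle and -0.12 with LLY-283, beside -0.02 and 0.01 for all genes tested. IFIT2 rose by 0.87 in vehicle and 1.44 with LLY-283. Mean IFI44L went from 11.58 to 8.11 CPM in vehicle and from 12.09 to 10.72 CPM with LLY-283.

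Of 10 class I-like genes 6 were tested, and MR1, which presents vitamin B metabolites to MAIT cells, was called higher at day 5, from 7.28 ± 1.03 to 13.7 ± 1.81 CPM (log2 difference 0.94, adjusted p = 5.4e-07). FCGRT at 0.19 and MICB at 0.19 were not called (adjusted p = 0.038 and 0.4). That 1 call of 6 stood beside 26.1% of all genes called at day 5. On day 0 MR1 was lower in the LLY-283 arm, at 6.51 ± 0.687 beside 7.77 ± 0.271 CPM. This log2 difference of -0.264 was not called (edgeR adjusted p = 0.86). The day 5 difference of MR1 less its day 0 difference was 1.203 (edgeR adjusted p = 4.3e-06), a value that includes the day 0 difference. The single libraries of day 10 held 17.7 CPM of MR1 in vehicle and 19.39 CPM with LLY-283. Of 7 class II genes only HLA-DMA and CD74 could be tested at day 5, and neither was called. Of the markers of other cells, 3 of 9 fibroblast genes tested (LUM, THY1 and POSTN) were higher at day 5 and none was called lower, beside 12% of all genes higher. FN1 at -3.94, COL1A2 at -2.86, COL1A1 at -1.55, DCN at -0.63 and PDGFRB at -0.14 were not called, and the list median was -0.14, the summed fibroblast level being 262.5 to 425.8 CPM in vehicle and 344.1 to 345.7 CPM with LLY-283. Of the endothelial markers 1 could be tested and it was not called, and no immune marker reached the depth for a test. Of 7 glioma markers 3 were higher and 2 lower, beside 12% and 14.1% of all genes. The part of these markers in the class I differences was not tested.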

How the data were processed

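RNA was measured in 24 libraries of HSJD-DIPG-007 cells, poly(A)-selected and made with a directional kit. The authors deposited estimated counts per gene, made with kallisto on hg38 and written as whole numbers; versions and the annotation are not given in the sources used here. These deposited counts were grouped by arm and day from the labels. Library sizes were scaled by TMM, genes of low count were removed by filterByExpr, and each comparison was fitted with edgeR's quasi-likelihood test (edgeR 4.0.16, R 4.3.3), its p-values adjusted by Benjamini-Hochberg over all genes and called under 0.01. Day 10 entered no test. DESeq2 1.42.0, other scalings and filters, a replicate block and omission of each library were alternatives. On simulated day 5 counts 89% of genes changed by a log2 of 1 were recovered, and 77% of those changed by 0.5. Outside the 9 genes, the text names the 3 genes of smallest p at day 5 in each list and 5 genes most correlated with the mean z-score, 1 of which is not reported here. PSMB8, PSMB9, IRF9, STAT3, RFXAP, IRF1, CIITA, IFIT3, IFIT5, FN1, COL1A1, COL1A2, DCN, PDGFRB and SOX10 were named after their values were seen. Members and lists were chosen with earlier results of these data known.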

Additional observations from a re-analysis of the deposited data

Results flagged for a closer look

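The difference between the arms in HLA-B, HLA-C, TAP1 and TAP2 changed from day 0, before treatment, to day 5 when the change itself was tested. On the log2 scale the day 5 difference less the day 0 difference was 0.53 for HLA-B, 0.25 for HLA-C and 0.35 for TAP1, and it was -0.25 for TAP2 (edgeR, adjusted p = 3.9e-07, 0.0072, 0.0014 and 0.0079). None of these genes passed when 22 libraries shared 1 fit. The HLA-C call was lost in 9 of 12 omissions of a single library and the TAP2 call in 8 of them.

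The day 10 libraries, which entered no test, held HLA-B at 1.25 times and B2M at 1.04 times the vehicle level with LLY-283, both with counting intervals above 1. The intervals of TAP1 (0.906), TAP2 (0.824) and NLRC5 (0.875) lay below 1, although TAP1 had been higher with LLY-283 at day 5. With 1 library in each arm these ratios have no replicate check. For HLA-B and B2M the spread between repeats on day 7 was larger than the day 10 difference.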

How the results depend on the processing

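Under the alternatives the direction and the side of the threshold held for 108 of 128 values of single genes at day 5, 121 of 128 in vehicle over culture, 128 of 128 with LLY-283 over culture and 149 for the interaction, against 27 that lost it, 3 that gained it and 3 that changed sign. Over single omissions the genes called numbered 4 to 5 higher and 0 to 1 lower at day 5, 1 higher and 6 to 7 lower in vehicle over culture, 2 to 3 higher and 0 to 1 lower for the interaction, and 0 to 1 for the time course. The interaction of HLA-E, not called, ran from -0.013 to 0.104 over single omissions, its sign changing when vehicle repeat 2 (-0.013) or LLY-283 repeat 1 (-0.001) of day 5 was omitted, and it was 0 when vehicle repeat 3 of day 0 was. One fit of 22 libraries called 0 higher and 0 lower at day 5, and 0 and 0 for the interaction. Scaling by library size alone called 0 higher in vehicle over culture, and 5 higher and 0 lower for the interaction, where B2M and TAPBP passed and TAP2 did not. A threshold of 0.05 called 5 higher for the interaction. The time course called 2 genes, HLA-C and TAP1, without a filter on low counts, 3 without repeat 2 of day 7 and 3 from days 0 to 5 alone. At day 5 HLA-F lost its call under DESeq2 (log2 difference 0.55, adjusted p = 0.057) and without a filter (0.55, 0.017). The cause of these changes was not tested.

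Same-numbered libraries of the arms did not deviate together on days 0 and 5 (r from -0.05 to 0.006), so the numbers are not taken as pairs. With a replicate block the interaction called 2 genes higher and 0 lower, since TAP2 at -0.25 (adjusted p = 0.018) and HLA-C at 0.25 (0.01) did not pass, and neither did HLA-F at day 5, at 0.555 (0.011). The block changed no other call of the 9 genes. Summing all identifiers of a symbol gave no new value, as each symbol had 1.

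HLA-F, at 42 to 175 counts a library, is limited by depth, and day 7, with 2 repeats that disagreed, recovered 5% of simulated log2 changes of 0.5.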
